A study of Mus musculus with 27 samples.

Results

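The colonic response to 10 μg/kg TCDD was examined in 6 of the 27 libraries of a dose-response series. They were chosen by their dose labels alone, 3 mice at 10 μg/kg (mice 57, 58 and 59) and 3 at a dose of 0 (mice 2, 3 and 4, here vehicle). All were male C57BL/6 mice that carried no engineered allele in their labels and received 7 gavages, 1 every 4 days, between 28 and 56 days of age. The controls were given the sesame oil alone, and the treated mice 2,3,7,8-tetrachlorodibenzodioxine (TCDD) in that oil. Scrapings of the colonic epithelium were taken from each mouse between zeitgeber time 0 and 3 (the first hours after lights on), and 1 RNA library was sequenced per mouse. The series as a whole compared 8 doses of TCDD with vehicle, 3 mice in each of 9 groups.

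TCDD is a dioxin that binds the aryl hydrocarbon receptor (AhR), a transcription factor held in the cytosol until a ligand enters. The bound receptor moves to the nucleus, pairs with ARNT and binds dioxin response elements, whose core letters are GCGTG. Its classical targets are the cytochrome P450 enzymes of the Cyp1 family, which oxidize planar hydrocarbons, and the AhR repressor Ahrr, which competes for ARNT in a negative feedback loop. In the gut the receptor is known for sensing dietary and microbial ligands and for its part in the upkeep of the epithelial barrier.

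The stretches just upstream of the RefSeq start sites of 5 genes are shown because each holds the motif marked in it: 3 AhR targets and Pcdh17, which had the smallest adjusted p of the decreases named here, for the AhR motif, and Ciart as the example of a clock gene. Each holds 250 bases of GRCm38.p6, printed 5′ to 3′ on the strand of its gene: Cyp1a1 at chr9:57697363-57697612 (+), Cyp1b1 at chr17:79715062-79715311 (−), Ahrr at chr13:74292332-74292581 (−), Pcdh17 at chr14:84443313-84443562 (+) and Ciart at chr3:95882229-95882478 (−). Capitals mark GCGTG, or CACGC where it lies on the other strand, in the first 4 sequences, and the E-box CACGTG bound by the clock proteins in Ciart.
Cyp1a1: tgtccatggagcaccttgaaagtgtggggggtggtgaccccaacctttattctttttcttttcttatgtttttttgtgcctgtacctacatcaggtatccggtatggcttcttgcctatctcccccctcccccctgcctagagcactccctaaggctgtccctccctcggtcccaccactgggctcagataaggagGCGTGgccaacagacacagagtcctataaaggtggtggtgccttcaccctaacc
Cyp1b1: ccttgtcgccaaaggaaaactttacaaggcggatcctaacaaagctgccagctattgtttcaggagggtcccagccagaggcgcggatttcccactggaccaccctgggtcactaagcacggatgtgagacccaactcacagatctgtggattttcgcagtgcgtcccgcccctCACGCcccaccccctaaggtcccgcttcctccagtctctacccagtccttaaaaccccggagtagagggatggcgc
Ahrr: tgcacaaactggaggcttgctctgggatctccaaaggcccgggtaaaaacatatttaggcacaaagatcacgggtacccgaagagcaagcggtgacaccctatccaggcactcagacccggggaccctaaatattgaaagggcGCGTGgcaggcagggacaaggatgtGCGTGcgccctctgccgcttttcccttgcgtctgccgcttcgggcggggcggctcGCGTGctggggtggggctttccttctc
Pcdh17: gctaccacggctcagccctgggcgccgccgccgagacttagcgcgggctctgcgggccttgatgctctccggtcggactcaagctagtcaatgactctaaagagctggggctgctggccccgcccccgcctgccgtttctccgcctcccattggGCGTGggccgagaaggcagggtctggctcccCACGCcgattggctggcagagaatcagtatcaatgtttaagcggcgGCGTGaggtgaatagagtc
Ciart: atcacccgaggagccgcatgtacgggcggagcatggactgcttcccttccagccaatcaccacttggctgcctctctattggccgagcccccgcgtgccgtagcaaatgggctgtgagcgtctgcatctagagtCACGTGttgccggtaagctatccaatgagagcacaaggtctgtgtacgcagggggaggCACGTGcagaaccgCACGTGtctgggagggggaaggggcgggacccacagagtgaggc

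The Cyp1a1 and Cyp1b1 stretches held 1 GCGTG match each, and those of Ahrr and Pcdh17 held 3 each. Tiparp also held 1, whereas the stretches of Acta1, Wfikkn2 and Nqo1, which are described below and not printed, held 0. Among all 32851 promoters in the RefSeq table, 28.2% held at least 1 match in the same 250 bases, and among the 14404 promoters of tested genes 42.5%. The share was 48.0% for the 123 promoters matched to 92 of the 134 genes that rose, and 38.0% for the 137 promoters matched to 103 of the 160 that fell. CACGTG was found 3 times upstream of Ciart, in 5 of 17 promoters (29.4%) of the called clock genes, in 7.89% of the promoters of tested genes and in 6.02% of all promoters, while Dbp held 0. GCGTG was found in 12 of the same 17 clock promoters (70.6%). A match is a description of these letters, and binding was not measured.

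The counts on genes ran from 9416898 to 10423536 per vehicle mouse and from 11838700 to 13235280 per mouse at 10 μg/kg, within a range of 9305441 to 14371035 over all 27 libraries. The groups did not overlap in the mitochondrial share of the counts (4.10 to 4.50% in vehicle and 3.52 to 3.76% at 10 μg/kg), nor in the share of reads with several alignments (34.6 to 35.6% and 31.7 to 33.7%). File names carry library index sequences that were used 2 times over, in a first set of 16 libraries and a second of 11. All vehicle libraries belong to the first set and all libraries at 3, 10 and 30 μg/kg to the second, so that in the comparison with vehicle the dose and the set cannot be told apart. For that reason 10 against 3 μg/kg is given beside it as the value within 1 set, and 30 against 3 μg/kg as a value within 1 set that holds none of the 6 mice. All 13 markers of colonic epithelium fixed for this check were detected in the 6 libraries, Epcam for example at 914 to 1140 CPM (counts scaled to TMM library size), and none was called different (Vil1 had an adjusted p of 0.0153 with less than a 1.5-fold difference).

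Of 16496 genes tested, 134 rose and 160 fell at 10 μg/kg against vehicle, where a call asked for an adjusted p below 0.05 (edgeR's quasi-likelihood test, Benjamini-Hochberg) and a difference of 1.5-fold or more. These 294 genes are called differentially expressed here and make up 1.78% of those tested (0.812% higher and 0.97% lower). Differences of at least 2-fold were found for 163 of them, and of at least 4-fold for 24 that rose and 24 that fell. The 3 treated mice lay outside the range of the 3 vehicle mice for 288 of the 294, against 25.2% of all tested genes. The median log2 fold change of all tested genes was -0.01. Without vehicle mouse 2 the count of called genes was 163 (93 higher and 70 lower), without vehicle mouse 3 it was 187 (87 and 100) and without vehicle mouse 4 it was 170 (79 and 91). Without treated mouse 57, 58 or 59 the counts were 109, 130 and 106 higher and 105, 98 and 90 lower. With the index set as a term of the fit, whose estimate rests on the mice at 1 μg/kg, 58 genes were called, of which 41 were higher and 17 lower. More genes were thus higher than lower in that fit, without vehicle mouse 2 and without each treated mouse, and also with the adjusted p alone (305 and 227) and in a fit of only the 6 libraries (140 and 130), so that which direction held more genes depended on these choices. Among the called genes that the naming rule selected, Cyp1a1, Cyp1b1, Ahrr, Acta1, Wfikkn2, Pcdh17, Dbp, Ciart, Cry2, Trpm5, Avil, Dclk1 and Scg2 were called in that fit, and the others of that selection described below were not. Gene models on the opposite strand overlap Tiparp, Ugt1a6a, Ugt1a6b, Lpcat2, Dbp, Ciart, Tef, Cry2, Acta1, Pla2g4c, Dab1, Trpm5, Avil, Dclk1, Plcg2, Lgr5, Zg16, Fabp2, Slc2a2, Sult1a1, Pfkfb3 and Cubn among the genes so selected, and since strand use in counting is not stated, reads of such pairs cannot be told apart.

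**Figure D1:**
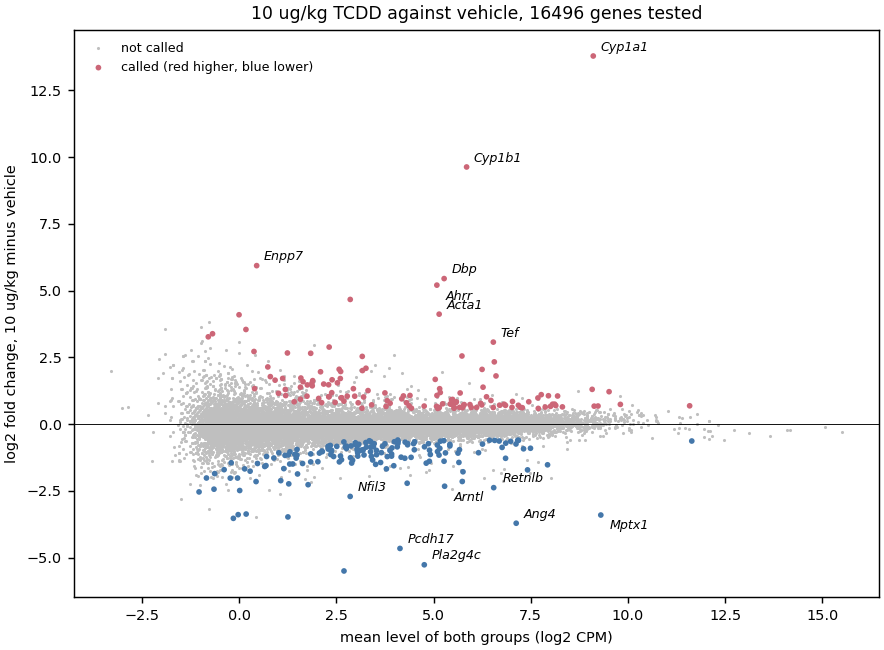
Log2 fold change at 10 μg/kg against vehicle (vertical) by the mean level of both groups in log2 CPM (horizontal), 1 point per tested gene, with red for the 134 called higher and blue for the 160 called lower. Cyp1a1 and Cyp1b1 lie far above the rest, while Pla2g4c and Pcdh17 are among the lowest points.

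The AhR response was led by Cyp1a1, Cyp1b1 and Ahrr, the first pair almost undetected in vehicle mice. Of 14 listed AhR genes, 12 were tested and these 3 rose (0.812% of all tested genes were called higher). Cyp1a1, the monooxygenase most strongly tied to AhR activity, had 1, 0 and 1 counts in the vehicle mice and 15749, 10468 and 14340 at 10 μg/kg. Every treated mouse thus stood orders of magnitude above every vehicle mouse. The ratio of the summed levels was 16400, with a 95% counting interval of 4550 to 136000 that rests on 2 vehicle counts, and the fitted log2 fold change was 13.79 (SE 0.53, edgeR adjusted p = 2.24e-14).

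Cyp1b1, the family member known for oestradiol 4-hydroxylation, had 2, 1 and 1 counts in vehicle and 1528, 1238 and 1460 after treatment. The treated mice differed little among themselves, with a mean of 115 ± 13.3 CPM (SD, n = 3). The ratio of the summed levels was 856 (95% counting interval 334 to 3140, from 4 vehicle counts), and the fitted log2 fold change was 9.63 (SE 0.394, edgeR adjusted p = 4.51e-14). Ahrr, the feedback repressor, was detected in all vehicle mice with 17, 14 and 22 counts, and reached 881, 677 and 871. Every treated mouse stood far above the vehicle range, 37.0-fold on average (log2 fold change 5.21, SE 0.231, edgeR adjusted p = 1.84e-13). Within the second index set these genes differed again between 10 and 3 μg/kg, by a log2 fold change of 3.73 for Cyp1a1, 5.86 for Cyp1b1 and 3.48 for Ahrr (edgeR adjusted p = 5.99e-09, 1.35e-12 and 4.72e-11).

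Other AhR genes differed less, and none of them was called in the edgeR fit that gave the 294 genes. The feedback ADP-ribosyltransferase Tiparp had 335, 237 and 245 counts in vehicle and 414, 467 and 525 at 10 μg/kg. After scaling the groups did not overlap, at 27.3 ± 4.90 and 38.2 ± 2.48 CPM (SD, n = 3), but the log2 fold change of 0.48 (SE 0.156) did not pass the test (edgeR adjusted p = 0.0947) and turned to -0.19 with the index set term (adjusted p = 0.753). At 30 against 3 μg/kg, in other mice, Tiparp was called higher (1.19, SE 0.156, edgeR adjusted p = 0.000161). Nqo1, a quinone reductase under both AhR and NRF2, read 404, 585 and 562 against 927, 1190 and 1052. Its groups were also apart, and its log2 fold change of 0.73 (SE 0.228) had an edgeR adjusted p of 0.0813. Nqo1 was called by DESeq2 (adjusted p = 0.0282), by edgeR without the filter on low counts (0.0222) and with the Hox score described below as a covariate (0.0104). The glucuronosyltransferases Ugt1a6a (0.40) and Ugt1a6b (0.41), which overlap in the Ugt1a cluster and can share reads, and the flavin monooxygenase Fmo2 (0.96) had edgeR adjusted p-values of 0.372, 0.296 and 0.155, and Fmo2 was called when only the 6 libraries compared were fitted (0.97, adjusted p = 0.0477). The receptor itself gave 0.08 (SE 0.131) and its partner Arnt -0.02 (SE 0.0653), Arnt2 -0.59 (SE 0.44) and Lpcat2 -0.35 (SE 0.149), none past the threshold. Cyp1a2, with 0 counts in each vehicle mouse and 5, 3 and 2 at 10 μg/kg, and Aldh3a1, with 0, 0 and 1 against 2, 2 and 4, were too sparse to be tested.

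**Figure D2:**
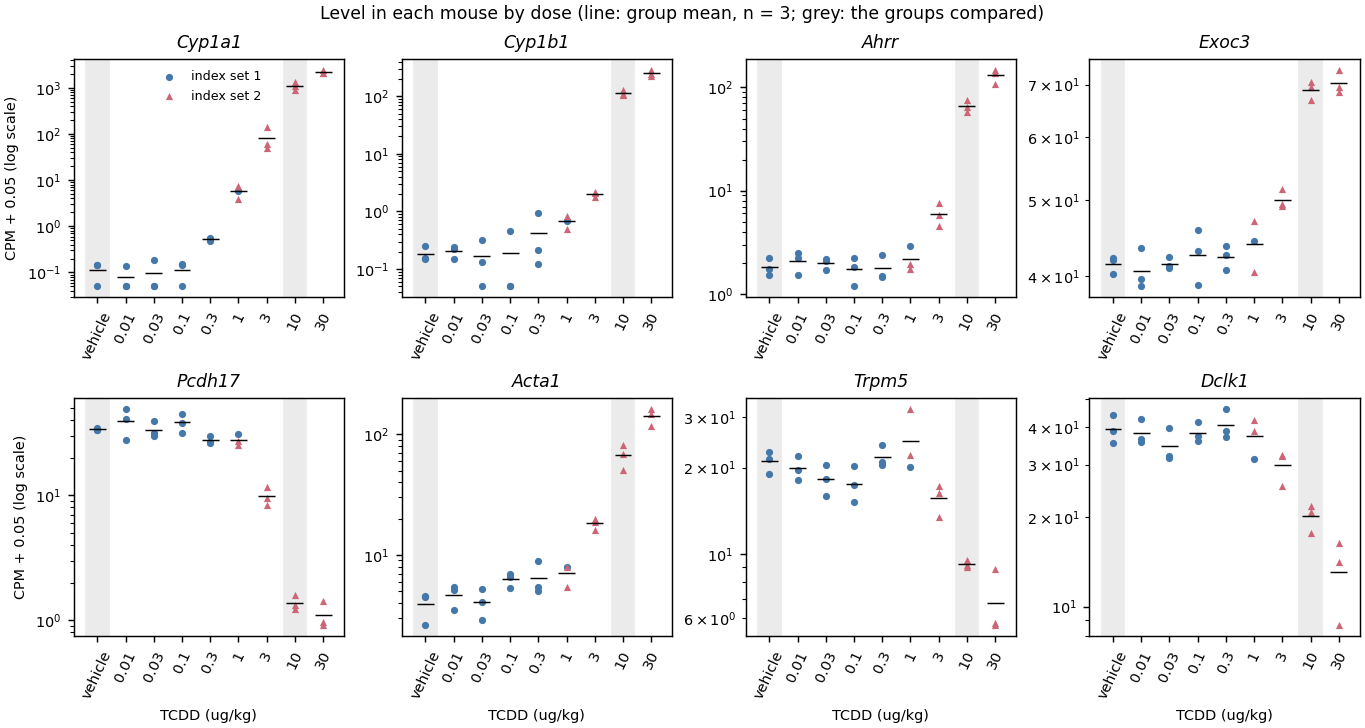
Level of 8 genes in each of the 27 mice (CPM plus 0.05, log axis) by dose, with circles for the first index set, triangles for the second and a line for each group mean (n = 3). Exoc3 lies at 66.9 to 70.5 CPM at 10 μg/kg, above all mice at lower doses, and Pcdh17 falls from 33.2 to 34.7 CPM in vehicle to 1.19 to 1.54 CPM.

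The neighbouring doses framed the levels at 10 μg/kg. At 3 μg/kg Cyp1b1 stood at 1.75 to 2.14 CPM, and at 10 μg/kg at 106 to 130 CPM. Ahrr moved from 5.90 ± 1.49 to 66.03 ± 8.66 CPM (SD, n = 3) between the same doses. The mice at 30 μg/kg were higher still, with 224 to 286 CPM of Cyp1b1 and 109 to 148 CPM of Ahrr, so that the groups at 3, 10 and 30 μg/kg did not overlap for either gene.

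Exoc3, a subunit of the exocyst that tethers secretory vesicles, rose at 10 μg/kg with an error smaller than that of almost all named genes. Its counts were 428, 381 and 427 in vehicle and 813, 781 and 946 at 10 μg/kg, or 40.2 to 42.1 CPM and 66.9 to 70.5 CPM. The groups lay far apart for so small a fold (1.67-fold, log2 fold change 0.74, SE 0.07, edgeR adjusted p = 7.84e-07). Against 3 μg/kg the difference was 0.46 (adjusted p = 0.00214), and in other mice at 30 against 3 μg/kg 0.49 (SE 0.0691, adjusted p = 0.000384), both under the 1.5-fold threshold. Exoc3 (chr13:74169488-74208732, minus strand, GENCODE M21 on GRCm38) begins 2386 bases past the end of Ahrr (chr13:74211118-74292331), on the same strand. The next gene beyond Exoc3 is Slc9a3, which rose by 0.68. On the other side of Ahrr Pdcd6 gave 0.11, Sdha 0.28 (adjusted p = 0.0223, under 1.5-fold) and Ccdc127 0.11, none called. The counts hold no positions within genes. Exoc3 was singled out after its values were seen.

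Pcdh17, a protocadherin of the cadherin adhesion family, fell to a few counts with a smaller error than the other large decreases named here. Its counts were 353, 317 and 338 in vehicle mice and 18, 15 and 16 at 10 μg/kg. No mouse of either group came near the other group, and the level was 25.1-fold lower (log2 fold change -4.65, SE 0.223, edgeR adjusted p = 7.45e-13). Compared with mice at 3 μg/kg, the 10 μg/kg mice had less of it too (-2.86 on the log2 scale, edgeR adjusted p = 5.76e-08), and it was lower at 30 than at 3 μg/kg, in mice outside this comparison (-3.18, SE 0.242, edgeR adjusted p = 1.05e-08).

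Acta1, which encodes the actin of skeletal muscle fibres, rose from 26, 42 and 46 counts to 589, 948 and 924. All treated mice were more than 10 times above the vehicle counts, 17.4-fold on average (log2 fold change 4.12, SE 0.258, edgeR adjusted p = 1.96e-10), and the difference from 3 μg/kg was 1.87 (edgeR adjusted p = 3.78e-05). The gene model that overlaps Acta1 on the opposite strand is Gm20388. Of 8 other skeletal muscle genes (Ckm, Myh1, Myh2, Myh4, Myl1, Tnnt3, Mylpf and Actn3, chosen after the rise of Acta1 was seen) none had more than 5 counts in any of the 6 mice. Of the 23 tested markers of stroma and muscle, Acta1 alone was called (0.812% of all tested genes were called higher). Values were above 0 for 22 of them (median log2 fold change 0.51, against -0.01 over all tested genes). The summed level of the list without Acta1 was 368 to 397 CPM in vehicle, 573 to 700 CPM at 10 μg/kg and 433 to 677 CPM at 3 μg/kg. The 6 smooth muscle markers Des, Myh11, Actg2, Acta2, Tagln and Cnn1 summed to 46.0 to 87.6 CPM and 157 to 265 CPM, and none of them was called by edgeR, DESeq2 or limma voom. In the whole list 6 of the 23 genes, Acta1 included, had an unadjusted p under 0.05, beside 2936 of all 16496 tested genes. The smooth muscle sum at 3 μg/kg was 98.1 to 256 CPM. The part of these cells in the rise of Acta1 was not tested.

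Wfikkn2, a secreted multidomain protease inhibitor that binds growth factors of the myostatin group, had 12, 11 and 12 counts in vehicle and 146, 49 and 129 at 10 μg/kg. Mouse 58 was the lowest treated mouse and still lay above every vehicle mouse (log2 fold change 2.89, SE 0.33, edgeR adjusted p = 1.73e-05). Across the genome, 8 genes (0.0485% of those tested) were called at 10 against 3 μg/kg, and 7 of these are among the 294, in the same direction. The comparisons share the 3 mice at 10 μg/kg. The 7 genes are Cyp1a1, Cyp1b1, Ahrr, Acta1 and Wfikkn2, which were higher, and Pcdh17 and the basement membrane protein Nid2, which were lower. Nid2 counts fell from 117, 114 and 150 to 59, 76 and 76 (log2 fold change -1.15, SE 0.192, edgeR adjusted p = 0.00162, and -1.07 against 3 μg/kg, adjusted p = 0.0217). The eighth gene, Plxnb1, a semaphorin receptor, was lower at 10 than at 3 μg/kg (-0.60, adjusted p = 0.0275) but was not called against vehicle (-0.37, adjusted p = 0.0633). Without mouse 57, or without mouse 52 of the 3 μg/kg group, 5 genes were called at 10 against 3 μg/kg.

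In the 6 mice at 30 and 3 μg/kg, none of which is among the 6 mice compared above (the fit shares only its estimate of the spread), 76 genes were called (0.461% of those tested). The 294 genes called at 10 μg/kg held 36 of these, 16 higher and 20 lower and all in the direction seen at 10 μg/kg, which is 12.2% of the 294 against 0.247% of the genes not called. By sign alone, 240 of the 294 (81.6%) pointed the same way in both comparisons. The same share was not computed for the genes not called. Leaving out mouse 49 or mouse 52 at 3 μg/kg reduced the 36 to 22 and 21. The count was 12 with the index set term, 58 with DESeq2 and 66 with the Hox score as a covariate.

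**Figure D3:**
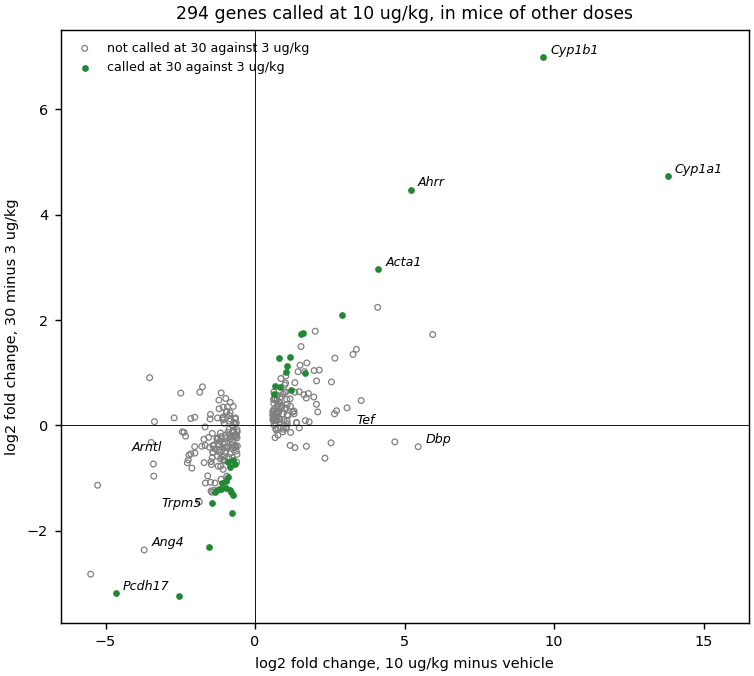
Each of the 294 genes called at 10 μg/kg against vehicle, by its log2 fold change there (horizontal) and its log2 fold change at 30 against 3 μg/kg in mice that were not part of it (vertical), with filled points for the 36 called in both. Cyp1a1, Cyp1b1, Ahrr and Acta1 lie high in both and Pcdh17 low in both, while Dbp, Tef and Arntl lie near 0 on the vertical axis.

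The largest group by count was that of the circadian clock. The clock is a loop in which Arntl with Clock or Npas2 switches on Per, Cry, Nr1d1 and Nr1d2, whose products then repress it, and in which Dbp, Tef and Hlf carry the rhythm to output genes. Of 26 tested clock genes 12 rose and 4 fell (1.78% of all genes were called). For 24 of the 26 the groups did not overlap, against 25.2% of all tested genes. The members that rose include the outputs and most of the repressors, and the members that fell are the activators Arntl and Npas2, the repressor Cry1 and the Dbp antagonist Nfil3. With the index set term 6 clock genes were called (58 of all 16496 tested genes), and the calls of Tef (adjusted p = 0.0505), Nr1d2 (0.0528), Nfil3 (0.0927), Arntl (0.146) and Per1 (0.335) were lost. Their log2 fold changes in that fit were 3.406, 1.909, -3.475, -2.222 and 1.194, against 3.075, 1.808, -2.705, -2.322 and 1.387 without the term. The term rests on 1 mouse of the first set and 2 of the second at 1 μg/kg.

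Dbp, an output activator, had 18, 19 and 14 counts in vehicle and 1041, 769 and 962 at 10 μg/kg. This was the widest separation of the clock genes, 43.8-fold (log2 fold change 5.45, SE 0.84, edgeR adjusted p = 0.00103). Ciart, a repressor of the Arntl complex, rose from 5, 2 and 9 counts to 173, 178 and 158, a log2 fold change of 4.67 (SE 0.77, edgeR adjusted p = 0.00152). Tef, related to Dbp, rose 8.43-fold, from 197, 210 and 179 counts to 1986, 1921 and 2198 (edgeR adjusted p = 0.000879). Among the repressors that rose the log2 fold changes were 2.56 for Per2, 2.05 for Per3, 1.39 for Per1 (1.25 to 1.49 with 1 mouse left out, the call holding only without treated mouse 57), 2.33 for Nr1d1, 1.81 for Nr1d2 and 1.17 for Cry2, all called, and those of Hlf, Usp2 and Bhlhe40 were 2.72, 1.68 and 0.62.

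The activator Arntl fell from 804, 577 and 557 counts to 228, 89 and 159, with no overlap (5.00-fold lower, log2 fold change -2.32, SE 0.403, edgeR adjusted p = 0.00216, and 0.146 with the index set term). Npas2 fell by 1.78 and Cry1 by 1.13 on the log2 scale. Nfil3 counts fell from 126, 115 and 133 to 14, 36 and 20 (log2 fold change -2.71, SE 0.441, edgeR adjusted p = 0.00139). Clock itself gave -0.44 (SE 0.158, edgeR adjusted p = 0.128).

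Against 3 μg/kg no clock gene was called at 10 μg/kg (edgeR, with 1 at an unadjusted p under 0.05, and 0 called by DESeq2 and 0 by limma voom), and the median of their log2 fold changes was 0.13, against 0.55 in the comparison with vehicle. Between 10 and 3 μg/kg 791 of all 16496 tested genes had an unadjusted p under 0.05. All 12 mice at 1 μg/kg or more, 11 of them in the second set, had 29.4 to 88.8 CPM of Dbp, and 14 of the 15 mice at lower doses, all in the first set, had at most 16.7 CPM. Within the first set the 3 mice at 0.3 μg/kg lay above the vehicle mice, with 12.2 to 16.7 against 1.37 to 2.00 CPM of Dbp, 94.0 to 107 against 25.3 to 39.8 CPM of Nr1d1 and 40.1 to 51.9 against 17.6 to 22.1 CPM of Tef. Dbp stood at 88.0 CPM in mouse 41, given 1 μg/kg and of the first index set, and at 43.9 and 55.3 CPM in the 2 other mice of that dose, of the second index set. Mouse 14, given 0.01 μg/kg and also of the first set, had 60.0 CPM of Dbp, 124 CPM of Tef and 11.8 CPM of Arntl, whereas the 2 other mice at 0.01 μg/kg had 2.53 to 2.74 CPM of Dbp and 51.4 to 71.5 CPM of Arntl. The hour at which each mouse was sampled is not given in the labels.

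**Figure D4:**
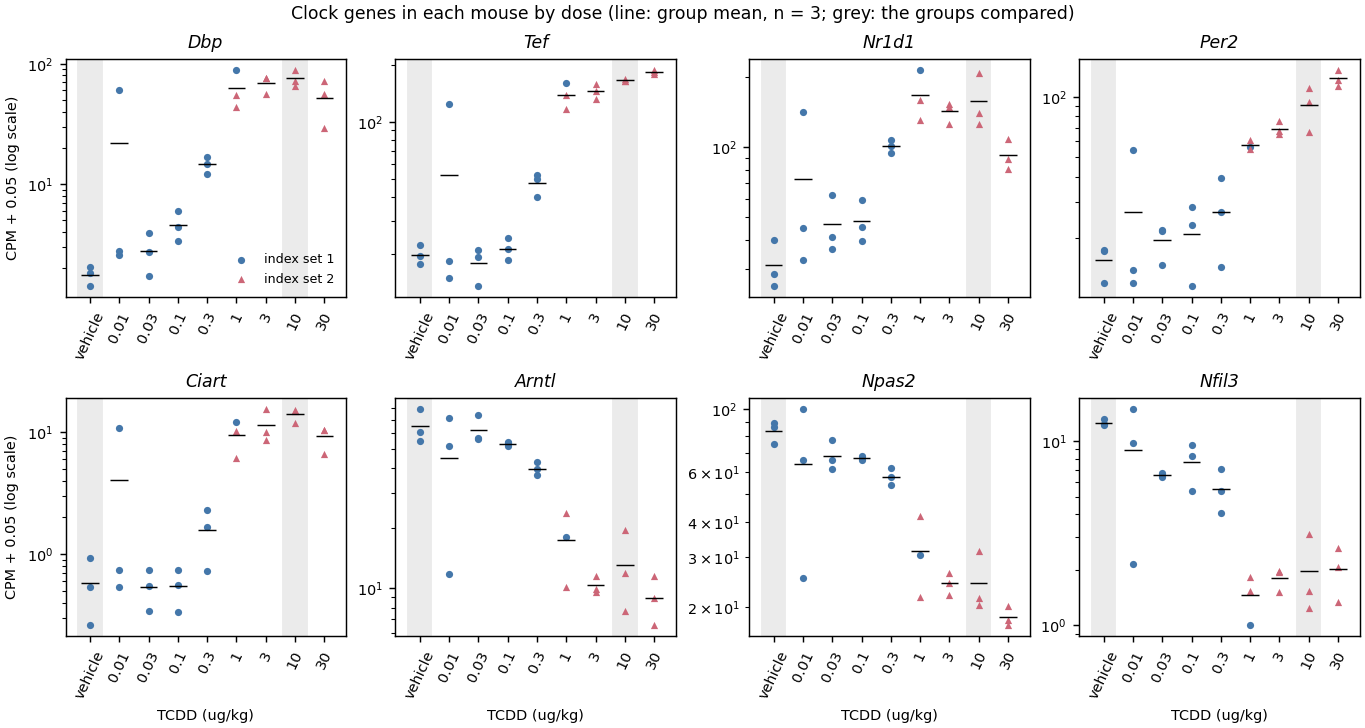
Level of 8 clock genes in each mouse (CPM plus 0.05, log axis) by dose, with circles for the first index set, triangles for the second and a line for each group mean (n = 3). The high Dbp and low Arntl of the 10 μg/kg mice are shared by the mice at 1, 3 and 30 μg/kg and by 1 mouse at 0.01 μg/kg.

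Tuft cell genes moved mainly downward. Tuft cells are rare chemosensory cells of the epithelium that use Trpm5 signalling and start type 2 immune responses. Of 29 listed markers 26 were tested, 9 fell and 1 rose (0.97% of all genes were called lower and 0.812% higher), with a median log2 fold change of -0.78. With the index set term 4 tuft genes were called (58 of all 16496 tested genes). The taste-transduction channel Trpm5 had 231, 180 and 218 counts in vehicle and 105, 111 and 122 at 10 μg/kg. The treated mice were tightly grouped below all vehicle mice, 2.29-fold lower (log2 fold change -1.20, SE 0.174, edgeR adjusted p = 0.000522).

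The microtubule kinase Dclk1, the most used tuft marker, fell from 394, 336 and 448 counts to 244, 205 and 293, which is 20.1 ± 2.25 CPM against 39.4 ± 4.31 CPM in vehicle (log2 fold change -0.97, SE 0.168, edgeR adjusted p = 0.00211). The actin bundler Avil (-0.92), the adaptors Sh2d6 (-1.33), Sh2d7 (-0.98) and Fyb (-1.07), the exchange factor Vav1 (-0.69), the G protein regulator Rgs13 (-1.86) and the interleukin 25 receptor subunit Il17rb (-0.95) fell as well. Plcg2, a phospholipase that immune cells also use, rose by 0.80 on the log2 scale, a call lost with the index set term (adjusted p = 0.106). The lineage factor Pou2f3 gave -0.93 and the gustducin subunit Gnat3 -1.18, with edgeR adjusted p-values of 0.172 and 0.102. Among the mice outside the comparison, 8 tuft genes were called lower and none higher at 30 against 3 μg/kg, with a median of -1.01 (Trpm5 -1.21, SE 0.179, and Dclk1 -1.19, SE 0.172, for example). Of all 16496 tested genes, 40 were called lower and 36 higher at 30 against 3 μg/kg. Between 10 and 3 μg/kg the median was -0.30 and no tuft gene was called (edgeR, with 11 at an unadjusted p under 0.05, and 1 called by DESeq2 and 0 by limma voom). In that comparison 791 of all 16496 tested genes had an unadjusted p under 0.05. In these bulk libraries fewer cells of a type and less RNA per cell cannot be told apart.

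Genes of the crypt base and of secreted defence were lower in part. Lgr5, the Wnt receptor component that marks intestinal stem cells, fell from 88, 98 and 93 counts to 58, 67 and 71 (log2 fold change -0.81, SE 0.18, edgeR adjusted p = 0.0136). The call was lost without vehicle mouse 3 or treated mouse 57, at -0.87 to -0.74 with 1 mouse left out. After scaling the groups were apart, and the difference at 30 against 3 μg/kg was -1.27 (SE 0.186, edgeR adjusted p = 0.000649). The crypt transcription factor Sox9 fell by 0.61 on the log2 scale (-0.69 to -0.47 with 1 mouse left out, called only without treated mouse 58), and these 2 were the genes called among 22 stem and Wnt genes, whose median was -0.21 (0.97% of all genes were called lower). Of 30 proliferation genes none was called by edgeR, DESeq2 or limma voom, and the median was -0.14. An unadjusted p under 0.05 was found for 6 of them, beside 2936 of all 16496 tested genes. Values were below 0 for 24 and above 0 for 6. The list summed to 888 to 983 CPM in vehicle and 701 to 819 CPM at 10 μg/kg.

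Of 25 antimicrobial and deep crypt genes 3 fell and none rose (0.97% of all genes were called lower). Ang4, an antimicrobial ribonuclease of goblet and deep crypt cells, had 2504, 1553 and 3746 counts in vehicle and 165, 212 and 363 after treatment. The groups were widely apart, 13.1-fold (log2 fold change -3.71, SE 0.697, edgeR adjusted p = 0.00459), but the call was lost with the index set term (log2 fold change -4.58, adjusted p = 0.0914). Mptx1, a pentraxin of the mucosa, fell from 14415, 8072 and 12133 counts to 2242, 161 and 1642, mouse 58 being far below the other treated mice (log2 fold change -3.40, SE 0.894, edgeR adjusted p = 0.0369). Its call was lost when any of the 6 mice was left out, at log2 fold changes of -4.06 to -2.88. Pigr, the receptor that carries IgA across the epithelium, fell 1.55-fold (log2 fold change -0.63, and -0.71 to -0.56 with 1 mouse left out), a call lost without vehicle mouse 4 or treated mouse 58.

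In the goblet cell list of 24 genes the mucus lectin Zg16 rose (log2 fold change 0.74, edgeR adjusted p = 0.025) with overlapping groups, and Ang4 and Retnlb fell (0.812% of all genes were called higher and 0.97% lower). The call of Zg16 held only without vehicle mouse 2 or treated mouse 58, in a range of 0.53 to 0.96 with 1 mouse left out. Retnlb, a resistin-like protein with antibacterial activity, read 1324, 666 and 2746 counts in vehicle and 223, 324 and 584 at 10 μg/kg, 5.19-fold lower (edgeR adjusted p = 0.0268). The call of Retnlb was lost without vehicle mouse 2 or 4 or treated mouse 57 or 58, and its log2 fold change of -2.38 ran from -2.74 to -1.73, the latter without vehicle mouse 4. Muc2, the gel-forming mucin, gave -0.11 (edgeR adjusted p = 0.816).

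A few genes of absorptive cells were higher. Of 40 colonocyte genes 4 rose and none fell (0.812% of all genes were called higher), among them the brush border myosin Myo1a (log2 fold change 0.68), the cortisol-inactivating enzyme Hsd11b2 (0.75) and the sodium-proton exchanger Slc9a3 (0.68). For these 3 the groups were apart, as for Hsd11b2 with 2142, 1938 and 1859 counts in vehicle and 3830, 3474 and 5096 at 10 μg/kg (SE 0.146, edgeR adjusted p = 0.0058). Between 10 and 3 μg/kg they gave 0.07 to 0.14 on the log2 scale. With the index set term 1 gene of the list was called, and Slc9a3 (adjusted p = 0.0678), Myo1a (0.0927) and Hsd11b2 (0.202) were not.

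Of 28 tested genes typical of the small intestine 3 rose (0.812% of all genes were called higher) and 23 had values above 0, with a median of 0.67. Both limma voom and the index set term gave 1 call, and the fit without the filter on low counts gave 7. The fatty acid binding protein Fabp2 had 1368, 1343 and 1407 counts in vehicle and 2577, 3854 and 3613 at 10 μg/kg, without overlap (1.98-fold, log2 fold change 0.98, SE 0.161, edgeR adjusted p = 0.00139, and 0.116 with the index set term). The fructose transporter Slc2a5 rose 2.79-fold (log2 fold change 1.48, and 1.25 to 1.74 with 1 mouse left out, called only without vehicle mouse 4 or treated mouse 59). The glucose transporter Slc2a2 had 1, 2 and 0 counts against 29, 5 and 37, a ratio of 19.2 with a 95% counting interval of 6.30 to 95.2, and its call held only without treated mouse 58 (fitted log2 fold changes of 3.54 to 5.00 with 1 mouse left out). Enpp7, an intestinal sphingomyelinase, had 0, 1 and 0 counts against 35, 8 and 59, a ratio of 82.7 (95% counting interval 14.5 to 3300, from 1 vehicle count, edgeR adjusted p = 0.00807). Enpp7 was not called by limma voom (adjusted p = 0.0701), with the index set term (0.0559) or by DESeq2, which gave it no adjusted p. The fitted log2 fold change of Enpp7, 5.94, was 7.99 without vehicle mouse 3, which held that count. Mouse 58 had the lowest count of both genes among the treated mice. On a score made of 25 Hox genes, which are set by position along the gut, mouse 58 stood at -3.20 and mice 57 and 59 at 4.68 and 3.85, while the vehicle mice lay between -1.47 and 3.56. No Hox gene was called by edgeR, DESeq2 or limma voom, and 1 of the 25 had an unadjusted p under 0.05 (2936 of all 16496 tested genes).

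**Figure D5:**
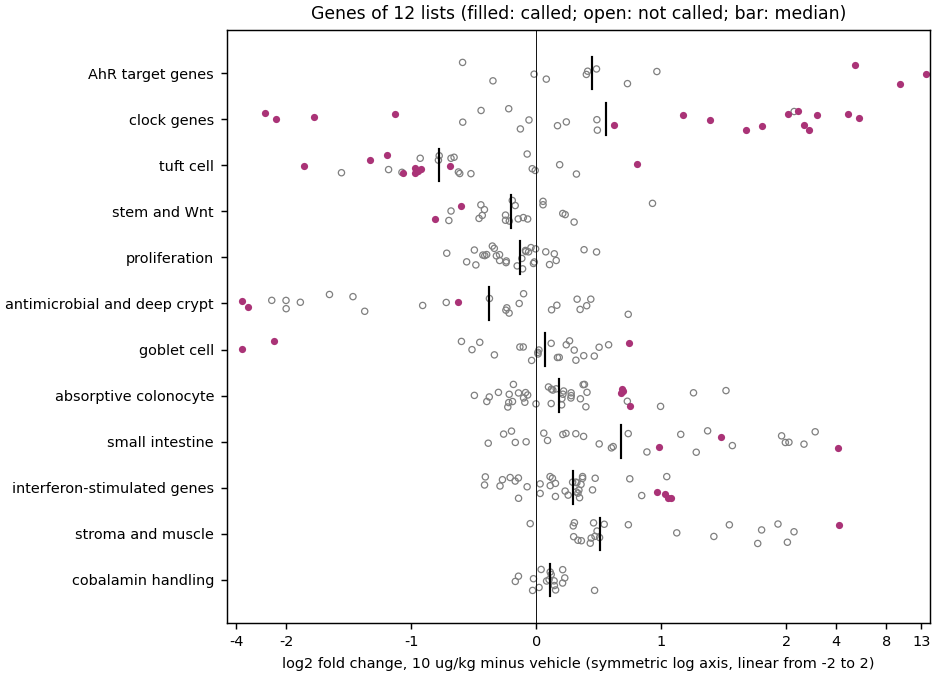
Log2 fold changes at 10 μg/kg against vehicle for the tested genes of 12 lists (symmetric log axis), with filled points for called genes, open points for the others and a bar for each median. AhR genes carry the largest rises, the tuft cell median lies at -0.78 and the cobalamin genes lie between -0.17 and 0.47.

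Pla2g4c, a cytosolic phospholipase, showed a large decrease whose size rested mainly on 1 mouse. Its counts were 157, 67 and 1384 in vehicle and 14, 23 and 13 at 10 μg/kg (log2 fold change -5.26, SE 1.14, edgeR adjusted p = 0.0118). Without vehicle mouse 4 the log2 fold change was -3.04 and the call was lost, as it was without treated mouse 57 or 59. Dab1, an adaptor of reelin signalling, fell from 44, 44 and 42 counts to 6, 7 and 1 (log2 fold change -3.47, SE 0.70, edgeR adjusted p = 0.00732, a call lost under limma voom at 0.058 and with the index set term at 0.123), and the sparsely counted 1700024J04Rik from 38, 13 and 11 to 2, 4 and 1, a call lost without vehicle mouse 2 or any 1 treated mouse (log2 fold changes of -3.99 to -2.60 with 1 mouse left out). The immunoglobulin segment Ighv1-53 had 0, 2 and 3 counts against 20, 33 and 23, a ratio of 12.3 (95% counting interval 5.05 to 39.0), and since near-identical segments can share reads its level is uncertain. Its fitted log2 fold change of 3.55 ran from 2.99 to 4.21 with 1 mouse left out, and the call was lost without vehicle mouse 2, with the index set term (adjusted p = 0.132) and with DESeq2, which gave it no adjusted p.

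Enzymes and transporters of xenobiotic metabolism outside the Cyp1 family changed singly. Among 42 phase I and II genes Cyp4f14, a fatty acid hydroxylase, rose 2.15-fold (edgeR adjusted p = 0.00123), and Sult1a1 and Cyp3a25 fell (0.812% of all genes were called higher and 0.97% lower). The phenol sulfotransferase Sult1a1 had 174 ± 31.5 CPM in vehicle and 104 ± 5.46 CPM at 10 μg/kg (SD, n = 3), 1.67-fold lower (edgeR adjusted p = 0.00861), and was also lower at 30 than at 3 μg/kg (-1.31, SE 0.155). Without vehicle mouse 3 the call of Sult1a1 was lost, at -0.86 to -0.61 with 1 mouse left out. Cyp3a25 was 4.33-fold lower, from 19, 32 and 51 counts to 6, 8 and 15 (log2 fold change -2.11, and -2.49 to -1.73 with 1 mouse left out, called only without vehicle mouse 2). Among 32 NRF2 and glutathione genes the conjugate exporter Abcc2 alone rose, from 15, 32 and 31 counts to 228, 131 and 204 (log2 fold change 2.54, SE 0.442, edgeR adjusted p = 0.00216), and the median of the list was 0.00. That 1 call in 32 genes is near the share of all genes called (1.78%).

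The remaining calls within lists were few, beside 1.78% of all genes called. Of 37 interferon-stimulated genes 4 rose about 2-fold (Oas3 1.08, Isg15 1.05, Oasl2 1.03 and Gbp3 0.97 on the log2 scale), with groups apart (0.812% of all genes were called higher). With the index set term none was called, at adjusted p-values of 0.167 (Gbp3) to 0.329 (Oasl2). The count was 0 without vehicle mouse 4 or treated mouse 57, 1 without vehicle mouse 2 or 3 and 2 without treated mouse 58, and at 30 against 3 μg/kg the 4 genes gave -0.05 to 0.09. Single genes were called in the lists of enteroendocrine cells (Scg2, 4.42-fold higher), endothelium (Cdh5, 3.14-fold higher), nerve and glia (Ret, 1.98-fold higher), tryptophan metabolism (the kynurenine aminotransferase Kyat1, 2.51-fold higher with overlapping groups), glycolysis (Pfkfb3, 2.30-fold lower) and glucocorticoid response (Per1, counted above with the clock). Of 13 tested endothelial genes 12 had values above 0 and 1 below (median 0.71). Of 6 tested nerve and glia genes 4 lay above 0 and 2 below (median 1.24). The immediate early factor Nr4a2 fell from 52, 52 and 51 counts to 16, 26 and 30, and Ier3 rose with overlapping groups. Of the genes typical of the proximal colon Cwh43 rose 1.59-fold and Mptx1 fell, and Fabp2 was the call among 30 genes of fatty acid oxidation. With 1 mouse left out the log2 fold changes ran from 1.71 to 2.39 for Scg2, 1.35 to 2.04 for Cdh5, 0.76 to 1.22 for Ret, 1.05 to 1.67 for Kyat1, -1.44 to -0.81 for Pfkfb3, 0.40 to 1.27 for Ier3 (the lowest without mouse 58), -1.53 to -1.21 for Nr4a2 and 0.50 to 0.77 for Cwh43. Each of these calls was lost without at least 1 mouse, that of Nr4a2 without mouse 57 alone, that of Cwh43 without mouse 58 alone and that of Scg2 without any of the 6.

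Cobalamin handling was examined because the study asked whether TCDD affects the uptake of vitamin B12. None of 17 genes was called at 10 μg/kg by edgeR, DESeq2 or limma voom, and the median log2 fold change was 0.11. An unadjusted p under 0.05 was found for 2 of the 17, beside 2936 of all 16496 tested genes. Cubn, the receptor for intrinsic factor and cobalamin, had 184, 424 and 452 counts in vehicle and 233, 512 and 423 at 10 μg/kg. The ranges overlapped almost fully, with 1 low mouse in each group, and the log2 fold change was -0.17 (SE 0.479, edgeR adjusted p = 0.901). Its partner Amn gave 0.23 (SE 0.438), the lysosomal exporter Lmbrd1 0.15 (SE 0.0862), the efflux pump Abcc1 -0.14 (SE 0.094) and the carrier Tcn2 0.02 (SE 0.11). For Cubn and Amn these errors are wide enough that a change of 1.5-fold in either direction was not detectable at this replication.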

How the data were processed

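Colonic epithelium RNA of 27 mice was sequenced, and the 6 libraries at 0 and 10 μg/kg are reported here. The authors deposited raw counts, whole numbers of reads per gene for each mouse, not normalized, over 46078 gene rows. The submitters' processing notes name FastQC 0.11.3, Trimmomatic 0.33, TopHat2 2.1.0, SAMtools 1.2.0, HTSeq 0.6.1, DESeq and the build GRCm38, with no annotation release or use of strand. Closing lines without a gene (such as reads on no feature, 31.1 to 32.1% in the 6 libraries) entered neither library sizes nor tests, and reads with several alignments were not counted, so near-identical genes can be undercounted. Pairs of mice within a group differed by more than sampling noise, so each mouse counts as 1 replicate, named by the number in its title.

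The analysis used edgeR 4.0.16 in R 4.3.3. Low genes were removed with filterByExpr at a minimum count of 10, which left 16496, and libraries were scaled with TMM. A single glmQLFit covered the 9 groups, each contrast was tested with glmQLFTest, and p-values were adjusted by Benjamini-Hochberg over every tested gene. Genes were called where the adjusted p lay under 0.05 and levels differed 1.5-fold or more. Standard errors are the log2 fold change divided by the root of F. Where vehicle mice had 0 to 3 counts each, a ratio of summed counts scaled to library size is given with an exact 95% interval, which covers counting error only. P-values measure the spread between mice, which are separate animals per the labels. Alternatives were RLE size factors, DESeq2 1.42.0, limma 3.58.1 voom, no filter, adjusted p alone, an index set term, a Hox score (first component of 25 Hox genes) as a covariate, only the 6 libraries, and each mouse left out. The steps were tested on simulated data.

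Genes named were the AhR list, the 10 largest rises and 10 largest falls among called genes with at least 1 CPM and groups apart, up to 4 called members of each of 32 gene lists, and 5 cobalamin uptake genes. The rule also names genes that are left out here. Exoc3, Nid2, Plxnb1, further tuft and clock genes, other skeletal muscle genes and the gasdermins were picked with their values in view. The members and lists were chosen with earlier results of these data known. Positions are from GENCODE M21 and promoters from RefSeq on GRCm38.p6, the build in the submitters' notes, and CPM values of different genes are not comparable with each other because they are not divided by length.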

Additional observations from a re-analysis of the deposited data

How the results depend on the processing

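No paired analysis was possible because no mouse number occurs in more than 1 group. The count of 294 genes called against vehicle was 532 with the adjusted p alone and 58 once the index set was a term, whose estimate rests on the 1 μg/kg group, the one dose with mice in both sets. It ranged from 163 to 228 with 1 mouse left out. The other settings gave 243 to 440. The 8 genes called at 10 against 3 μg/kg became 14 with DESeq2 and 5 to 8 with 1 mouse left out. The 36 called genes that passed at 30 against 3 μg/kg became 58 with DESeq2, 12 with the index set term, 66 with the Hox score and 21 to 44 with 1 mouse left out. Clock calls went from 16 to 6 and tuft calls from 10 to 4 with the index set term, and ranged from 12 to 15 and from 8 to 9 with 1 mouse left out. The cause of these changes was not tested. Of 53 called genes among the 67 named and tested, all 53 kept their direction in every alternative run, 13 were called in each of them, 27 with each of the 6 mice left out and 14 with the index set term (Cyp1a1, Cyp1b1, Ahrr, Acta1, Wfikkn2, Pcdh17, Dbp, Ciart and Trpm5 among them). Genes not called that changed sign were Tiparp (-0.19), Ugt1a6a (-0.12), Arnt (0.0082) and Tcn2 (-0.0133) with the index set term and Cubn (0.0585) with the Hox score, and with 1 mouse left out Amn (-0.0829 to 0.50), Tcn2 (-0.0107 to 0.0678), Arnt (-0.0442 to 0.00656) and Cubn (-0.48 to 0.0866). With 3 mice a group and 9416898 to 13235280 counts on genes each, genes with few counts, such as Enpp7, are measured with wide errors.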

Other observations

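The gasdermin C cluster on chromosome 15 was lower throughout. Gasdermins are pore-forming proteins, and the C branch is expressed in intestinal epithelium. All 6 tested members of the cluster fell, Gsdmc (log2 fold change -1.67), Gsdmc2 (-1.71), Gsdmc3 (-1.43), Gsdmc4 (-1.52), Gsdmcl2 (-2.02) and the pseudogene Gsdmcl-ps (-2.27), with edgeR adjusted p-values of 0.00784 to 0.0386 (0.97% of all genes were called lower, and the cluster was singled out after its values were seen). Gsdmc2, for example, had 2488, 1331 and 4074 counts in vehicle and 769, 1117 and 1057 at 10 μg/kg. For Gsdmc4 the groups overlapped, vehicle mouse 3 having 1232 counts. Near-identical members can share reads, so the 6 values are not independent. Gsdmd, Gsdme and Gsdma, which lie elsewhere, gave 0.04, 0.40 and -0.01 and were not called. Between 10 and 3 μg/kg the 6 members gave -0.51 to 0.41, none called.

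The remaining lists held no call at 10 μg/kg by edgeR. Of all 16496 tested genes, 2936 had an unadjusted p under 0.05. T cell and IEL genes (17 tested, median log2 fold change -0.16, 1 with an unadjusted p under 0.05), B and plasma cell genes (18, 0.01, 3), macrophage and myeloid genes (17, 0.08, 2), MHC class II genes (11, 0.18, 1), adipocyte genes (13, 0.45, 2), cholesterol synthesis genes (25, 0.16, 4), unfolded protein and heat shock genes (26, 0.00, 3) and cytokines and chemokines (22, 0.06, 6) are given in that order of values. DESeq2 called 1 macrophage and myeloid gene and 1 cytokine or chemokine gene, and limma voom called none in these lists. The adipocyte list summed to 284 to 414 CPM in vehicle and 436 to 586 CPM at 10 μg/kg.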
